A study of Mus musculus with 9 samples.

Results

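Mouse mast cells that had been given IgE and then antigen were compared with untreated mast cells, across all 15109 genes of the deposited count table. The comparison took 6 of the 9 libraries of the series, chosen by label alone: BSA replicates 1 to 3 and Control replicates 1 to 3. All cells were wild-type C57BL/6 mast cells raised from bone marrow for at least 4 weeks in DMEM holding 30% WEHI-3-conditioned medium, which supplies interleukin 3, and 20% fetal bovine serum. BSA cells were sensitised with anti-DNP-IgE and then stimulated with DNP-BSA, an albumin carrying several dinitrophenyl groups. Control cells received no treatment, neither antibody nor antigen, so binding of IgE and crosslinking by antigen cannot be told apart here. Neither the dose nor the duration of antigen, nor the age of the mice, is stated in the labels. Replicates are called biological there without naming animals or cultures, so a p-value measures only how far these particular samples spread, which may be technical.

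Mast cells carry IgE on a high-affinity receptor built from an IgE-binding alpha chain (Fcer1a), a signal-amplifying beta chain (Ms4a2) and a shared gamma chain (Fcer1g). When antigen draws receptors together, the kinases LYN and SYK start a cascade through adaptors such as LAT and SLP-76 that raises cell calcium and activates MAP kinases. Within minutes stored granules release histamine and proteases, lipid mediators follow, and cytokines and chemokines are then made from newly transcribed genes.

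Total counts lay between 13712274 and 14116976 in Control and between 11680348 and 14005776 in BSA, and 14211 genes had a count in all 6 libraries. A level is given as CPM, the count of a gene rescaled to a library of 1000000 counts, with library sizes adjusted by TMM (a trimmed mean of expression ratios), and 3 counts corresponded to 0.197 to 0.278 CPM. On principal components the groups lay apart along the leading axis (58.7% of variance). The next axis (12.3%) set BSA replicate 2 (score 26.6) and BSA replicate 3 (-27.4) on opposite sides of the other 4 libraries (-5.11 to 4.23). Among genes with a mean of at least 10 CPM, the median coefficient of variation was 4.52% in Control and 5.08% in BSA. The 12 markers of mast cells were all measured and summed to between 50437 and 52366 CPM in Control and between 55371 and 57883 in BSA. Basophil markers (4 of 5 measured) summed to 1350 to 1368 CPM in Control and 1314 to 1361 in BSA. Macrophage markers (9 of 10) summed to 76.7 to 79.2 CPM in Control and 90.9 to 99.6 in BSA. Of these 3 were called higher, among them Lyz2 and Cd14, and 1 lower, with the defining receptor Csf1r at 0.774 CPM in Control and 0.885 in BSA. Dendritic cell markers (4 of 7) summed to 42.4 to 47.2 and 46.2 to 51.8 CPM, and erythroid ones (3 of 6) to 32.6 to 36.9 and 35.1 to 41.6. Megakaryocyte markers (3 of 4), with Itga2b the highest, summed to 1707 to 1771 and 1687 to 1802 CPM. Eosinophil markers (2 of 6) summed to 12.7 to 14.5 and 24.4 to 29.5 CPM, from Ccr3 and Siglecf, the second of which was called higher and the first only without Control replicate 1 or BSA replicate 1, and T cell, B cell, NK cell and neutrophil markers stayed under 3 CPM in each library. Whether other cell types took part in any result was not tested.

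Of the 15109 genes, 4917 passed edgeR's quasi-likelihood test at an adjusted p under 0.05 (32.5%), and such genes are called here. In BSA 2281 were higher (15.1%) and 2636 lower (17.4%). A change of at least 2-fold was reached by 939 genes (6.21%), 554 of the higher genes (3.67%) and 385 of the lower ones (2.55%). No library of one group overlapped the other group in 6448 genes (42.7%), 4639 of them called (30.7%). The size of the changes was uneven. Among called genes of at least 2 CPM without overlap, the highest fitted rise was 8.29 on the log2 scale (Nr4a3). The deepest fall among them was -2.49 (Ccdc39), with predicted genes and pseudogenes not ranked. Over all 15109 genes, called or not and at any level, fold changes ran from -5.93 to 8.29. The split depended on scaling. Genes called higher by at least 2-fold held 3.41% ± 0.0703 (SD, n = 3) of all counts in Control and 11.3% ± 0.163 in BSA. With total counts alone in place of TMM the median of all genes moved from -0.01 to -0.23, and 1059 genes were called higher and 6742 lower. Small changes therefore take their direction from the scaling, and values under total counts are given beside many of the lists and genes below.

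**Figure D1:**
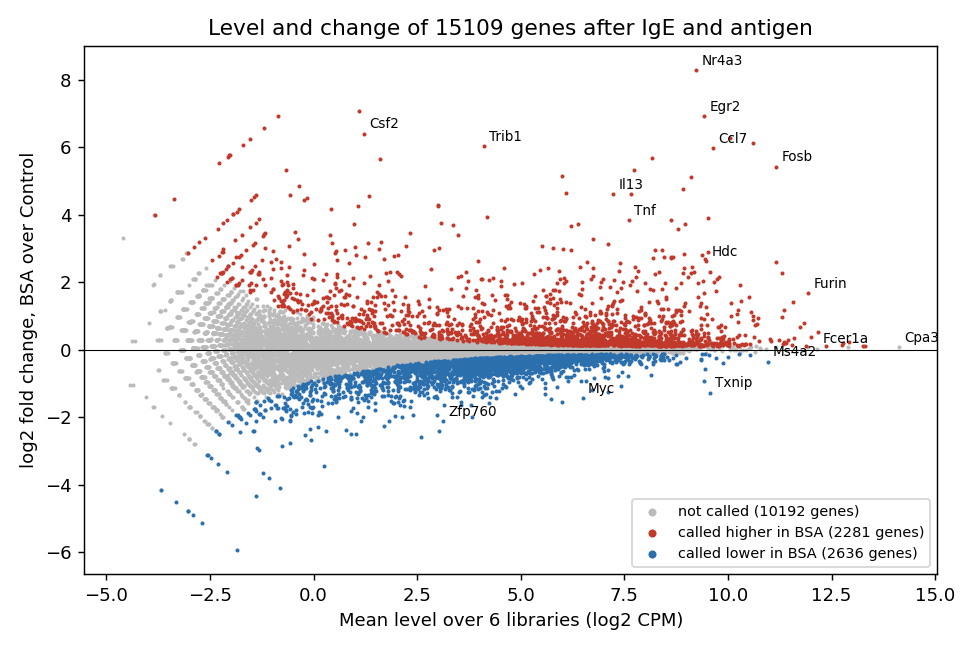
Mean level over the 6 libraries (log2 CPM, horizontal) against the log2 fold change of BSA over Control (vertical) for each of the 15109 genes, with genes called higher in red, called lower in blue and the others in grey. The upper part holds changes of up to 8.29 (Nr4a3) at high levels, while falls at comparable levels are shallow.

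Transcription factor genes led the rises. Nr4a3, one of 3 orphan nuclear receptors that act as immediate early genes, stood at 3.97, 3.34 and 4.14 CPM in Control replicates 1 to 3 and at 1279, 1167 and 1139 CPM in BSA, a log2 fold change of 8.29 ± 0.08 (SE; adjusted p = 1.94e-35, edgeR). Nr4a1 rose by 6.27 ± 0.07 and Nr4a2 by 5.33 ± 0.07, so all 3 members were called higher. Each of them was highest in BSA replicate 1. The early growth response factors and their NAB corepressors had 6 of 6 members higher. Egr2 went from 12.7, 10.6 and 10.6 CPM to 1408, 1293 and 1414 CPM (6.92 ± 0.07). Egr1 started from the highest level of the family's members in Control, 530 to 767 CPM, and reached 3764 to 4064 CPM (2.60 ± 0.07). Egr4 had no count in Control and 31 counts over the BSA libraries, at least 12.9-fold higher against a floor of 3 counts over the group. The corepressors rose less, Nab2 by 0.61 ± 0.06 and Nab1 by 0.23 ± 0.05, and Nab1 lost its call with total count scaling.

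Subunits of AP-1, the dimeric factor of FOS, JUN and ATF proteins, had 11 of 15 measured members higher and 1 lower, with a median log2 fold change of 2.31 against -0.01 over all genes. Fosb (GRCm38 chromosome 7, 19302696 to 19310051, minus strand) was at 106, 107 and 98.9 CPM in Control and at 4348, 4702 and 4308 CPM in BSA (5.42 ± 0.05). This was the largest gain in CPM among called genes, with predicted genes and pseudogenes not ranked. Atf3 rose by 4.63 ± 0.07, Fos by 3.13 ± 0.06, Junb by 2.81 ± 0.05 and Jun by 2.41 ± 0.05. The exception was Batf, a basic leucine zipper factor of lymphocytes, which fell by 0.42 on the log2 scale from 16.2 CPM. Among 24 other immediate early genes 19 were higher, led by Csrnp1 (3.83 ± 0.06), Plk3 (3.58 ± 0.06) and Btg2 (3.27 ± 0.07), and 4 were lower. Myc, the growth regulator usually grouped with this class, fell from 146, 114 and 135 CPM to 48.7, 48.5 and 49.4 CPM (-1.43 ± 0.07), with no overlap between groups. Id1 (-1.10 ± 0.28) and Id3 (-1.0 ± 0.27), inhibitors of helix-loop-helix factors at 2.44 and 2.28 CPM in Control, and Klf10 (-0.73 ± 0.06) were the others.

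The NF-kB group, subunits with their IkB and TNFAIP3-type inhibitors, had 11 of 15 higher and 2 lower (Tnip2 at -0.36 ± 0.08 and Nfkbie at -0.25 ± 0.07). The nuclear inhibitors Nfkbid (34.3 to 936 CPM) and Nfkbiz (105 to 688 CPM) rose furthest, and the subunits less, Rel by 1.21 ± 0.05 and Rela by 0.50 ± 0.06. Of 12 calcineurin and NFAT genes 5 were higher and 1 lower; Rcan1, an inhibitor of calcineurin, rose from 11.1, 12.1 and 11.7 CPM to 173, 136 and 155 CPM (3.73 ± 0.08), whereas Nfatc1 rose by 0.95 ± 0.05. The median of this list, 0.15, became -0.07 with total count scaling, with 2 higher and 5 lower. Factors that define the mast cell lineage moved little: 4 of 23 were higher and 2 lower, against background shares of 15.1% and 17.4% (3 higher and 12 lower with total count scaling). Gata2, with a fold change of -0.07 ± 0.04, Mitf (-0.10 ± 0.06) and Spi1 (0.01 ± 0.06) did not pass the test (adjusted p = 0.246, 0.216 and 0.926 by edgeR), though total count scaling called all 3 lower. Cebpb, a factor of myeloid differentiation, rose from 11.1 to 30.5 CPM (1.47 ± 0.10), Runx1 rose by 0.60 ± 0.05, and Gata1 fell by 0.40 on the log2 scale.

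**Figure D2:**
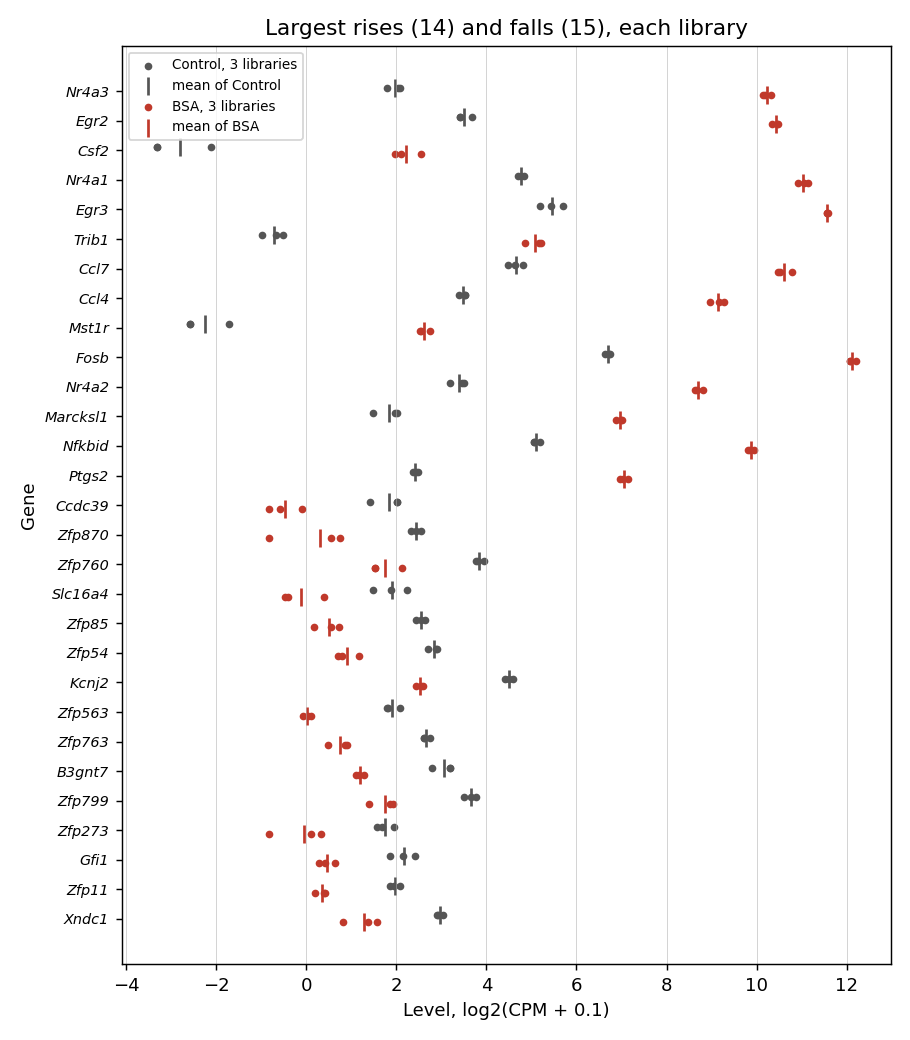
Level of 14 genes from the 15 largest rises and of those with the 15 largest falls, among genes of at least 2 CPM, as log2(CPM + 0.1) on the horizontal axis, with 1 point per library and a bar for the mean of 3. Only genes without overlap between the groups were eligible, so the separation of all 29 genes was set by the choice. The distances are far larger for the rises than for the falls.

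The base runs just before the annotated start are shown for 4 genes: an induced AP-1 gene, a pair of induced cytokine genes and a zinc finger gene among the deepest falls. They are RefSeq windows of up to 250 bases on GRCm38.p6, printed 5′ to 3′ on the gene's strand, with matches to searched motifs in capitals. Fosb covers chr7:19310052-19310295 (minus), Il6 chr5:30012864-30013113 (plus), Il13 chr11:53634703-53634952 (minus) and Zfp760 chr17:21707491-21707740 (plus).
Fosb: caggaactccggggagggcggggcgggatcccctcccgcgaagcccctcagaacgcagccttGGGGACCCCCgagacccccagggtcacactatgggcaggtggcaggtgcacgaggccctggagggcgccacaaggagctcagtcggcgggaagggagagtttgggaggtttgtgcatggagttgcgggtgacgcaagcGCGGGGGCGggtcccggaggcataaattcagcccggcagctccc
Il6: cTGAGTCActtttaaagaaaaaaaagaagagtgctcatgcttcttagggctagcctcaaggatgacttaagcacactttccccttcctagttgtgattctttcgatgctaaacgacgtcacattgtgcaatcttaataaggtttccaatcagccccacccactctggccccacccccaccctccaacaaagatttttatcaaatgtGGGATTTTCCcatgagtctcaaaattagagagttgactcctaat
Il13: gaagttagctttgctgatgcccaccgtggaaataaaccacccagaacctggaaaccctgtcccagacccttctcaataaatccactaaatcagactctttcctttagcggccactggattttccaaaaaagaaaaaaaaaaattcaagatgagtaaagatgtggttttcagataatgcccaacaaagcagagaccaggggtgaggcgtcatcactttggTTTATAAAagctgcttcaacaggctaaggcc
Zfp760: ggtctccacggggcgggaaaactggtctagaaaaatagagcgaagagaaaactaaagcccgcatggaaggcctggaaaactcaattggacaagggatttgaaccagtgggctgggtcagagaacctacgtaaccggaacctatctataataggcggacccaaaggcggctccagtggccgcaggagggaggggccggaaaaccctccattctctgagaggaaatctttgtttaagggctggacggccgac
In the Fosb window the capitals mark an NF-kB type match 182 bases and an EGR match 44 bases before the start. In Il6 they mark an AP-1 match at 249 bases and an NF-kB type match at 44 bases, and in Il13 overlapping TATA matches at 31 and 29 bases. The Zfp760 window held none of the 8 motifs searched. A window of Tnf, not printed, held only a TATA match, at 29 bases.

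Windows of this kind were found for 10591 of the tested genes, for 340 of the 554 genes higher by at least 2-fold and for 223 of the 385 lower ones. Both strands were searched. The AP-1 letters TGANTCA stood in 10.3% of windows of the 2-fold higher genes, in 4.04% of those of the 2-fold lower genes and in 4.38% of all tested genes. The TATA letters TATAAA stood in 15.9%, 5.83% and 6.37%, the NF-kB consensus in 8.24%, 4.04% and 4.28%, and the cyclic AMP response element TGACGTCA in 3.82%, 0.897% and 2.72%. The EGR letters GCGNGGGCG, which overlap general GC-rich sequence, stood in 10.9%, 5.83% and 8.66%. Of the 15 largest rises 10 had a window. Among these 10, 0 held the AP-1 letters, 0 the cyclic AMP response element, 1 the NF-kB consensus, 1 the TATA letters and 3 the EGR letters. Over all 32851 RefSeq windows the AP-1 share was 6.75% and the TATA share 12.4%, both above the shares of the tested genes. The CArG box (1.76% of 2-fold higher windows, 1.10% of tested), the NR4A-binding letters AAAGGTCA (1.18% and 0.859%) and the heat shock element (0% and 0.312%) were rare. The median number of CG pairs per window was 12 in both 2-fold sets and 15 over all tested genes. Protein-coding genes higher by at least 2-fold were also compact, with a median length of 13496 bp and 6 exons in the union of transcripts, against 23493 bp and 10 exons over all tested protein-coding genes. Genes lower by at least 2-fold were short too (12419 bp and 4 exons). These shares and medians are descriptions, and a match is not a bound site.

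Of the 4 lists of secreted ligands, interleukins and colony stimulating factors had the largest share of members higher, 13 of 15 measured (86.7%), against 15.1% of all genes. Il13, a type 2 cytokine of mucus and airway responses, was at 14.1, 10.03 and 11.3 CPM in Control and at 327, 247 and 288 CPM in BSA (4.60 ± 0.09). Il6 rose from 206, 177 and 204 CPM to 1048, 901 and 930 CPM (2.29 ± 0.06). Csf1, the macrophage growth factor, rose from 63.1, 78.6 and 66.7 CPM to 929, 910 and 925 CPM (3.73 ± 0.06), so BSA replicates lay within a narrower span than for Il13. Lif (2.69 ± 0.07) and Osm (1.21 ± 0.07), both ligands of the IL-6 family, and the interleukin 1 genes Il1a (1.88 ± 0.15) and Il1b (1.31 ± 0.06) rose as well. Another 3 were near the counting limit: Csf2 had 0, 2 and 0 counts in Control and 54, 47 and 62 in BSA, a ratio of 102 (95% exact interval 27.7 to 846), Il10 had 3 against 30 counts in all (ratio 12.5, 3.88 to 63.9), and Il33 none against 5, at least 2.08-fold higher; Il33 lost its call when any of the 6 libraries was left out (adjusted p = 0.0501 to 0.104, edgeR). Il16, a chemoattractant for CD4-bearing cells, was the single member lower (42.1 to 24.0 CPM, -0.82 ± 0.08), and Il15 did not pass the test. In 9 of the 13 genes BSA replicate 1 was highest, compared with 190 of the 554 genes called higher by at least 2-fold.

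Chemokines, which draw leukocytes into tissue, had 12 of 22 measured members higher and 1 lower. Ccl7 went from 28.0, 22.2 and 24.9 CPM to 1775, 1426 and 1479 CPM (5.96 ± 0.08), Ccl4 from 11.0 to 565 CPM (5.68 ± 0.08) and Ccl3 from 89.6, 88.5 and 96.2 to 1563, 1237 and 1300 CPM (3.90 ± 0.07). Per kilobase of exon, Ccl7 was the 9th most abundant transcript in BSA, at 1948 CPM per kb, and was not among the 10 most abundant in Control. Chemokine genes also lie side by side. In a run on chromosome 11, 82035571 to 82305690, chosen after its values were seen, all 4 measured genes (Ccl2, Ccl7, Ccl12 and Ccl1) were called higher, with a median log2 fold change of 3.62; Ccl12 rested on 11 counts against 1 and lost its call without Control replicate 2, Control replicate 3 or BSA replicate 1 (2.87, 2.88 and 3.10). In the next run on that chromosome, 83525778 to 83664683, Ccl3 and Ccl4 rose by several log2 units, Ccl9 by 0.75 ± 0.05 and Ccl6 by 0.16 ± 0.05 (-0.07 with total count scaling, and 0.14 with no call without BSA replicate 1), while Ccl5 did not pass the test (-0.05 ± 0.31). The member called lower was Ccl25 (6.84 to 3.20 CPM, -1.09 ± 0.18). The type 2 cytokine run on chromosome 11, 53602982 to 54249667, was likewise uneven: Il4 (1.03 ± 0.08), Il13 and Csf2 rose, the neighbouring Irf1 fell (-0.49 ± 0.08), and Rad50, which lies between Il13 and Irf1, was at 93.0 and 94.4 CPM and did not pass the test (0.02 ± 0.06, with -0.20 and a call under total count scaling).

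Ligands of the TNF superfamily had 5 of 11 measured members higher and 1 lower. Tnf rose from 25.7, 23.8 and 26.8 CPM to 418, 335 and 337 CPM (3.84 ± 0.08), and Tnfsf14 (LIGHT), Tnfsf9 (4-1BB ligand) and Tnfsf8 (CD30 ligand) rose by 2.05 ± 0.06, 1.61 ± 0.11 and 1.20 ± 0.06. Tnfsf10, the death ligand TRAIL, fell by 0.33 on the log2 scale. Growth and angiogenic factors had 9 of 16 higher and 3 lower. Vegfa, the endothelial growth factor, rose from 121, 118 and 129 CPM to 445, 433 and 409 CPM (1.81 ± 0.05), and Hbegf, a ligand of the EGF receptor, by 1.40 ± 0.11. Inhba, the activin A subunit, had 3, 3 and 0 counts in Control and 30, 35 and 27 in BSA, with no overlap (4.17 ± 0.45). Pgf and Pdgfa, further endothelial and mesenchymal growth factors, were lower, from 1.47 and 4.26 CPM (-1.25 ± 0.36 and -0.71 ± 0.20), and Pdgfa lost its call without Control replicate 3 (-0.56). The urokinase receptor gene Plaur rose from 23.9 to 56.8 CPM (1.24 ± 0.07). Furin, the convertase that cleaves proproteins in the secretory pathway, was already at 1946, 1790 and 1869 CPM in Control and reached 5817, 6098 and 5916 CPM (1.67 ± 0.04).

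**Figure D3:**
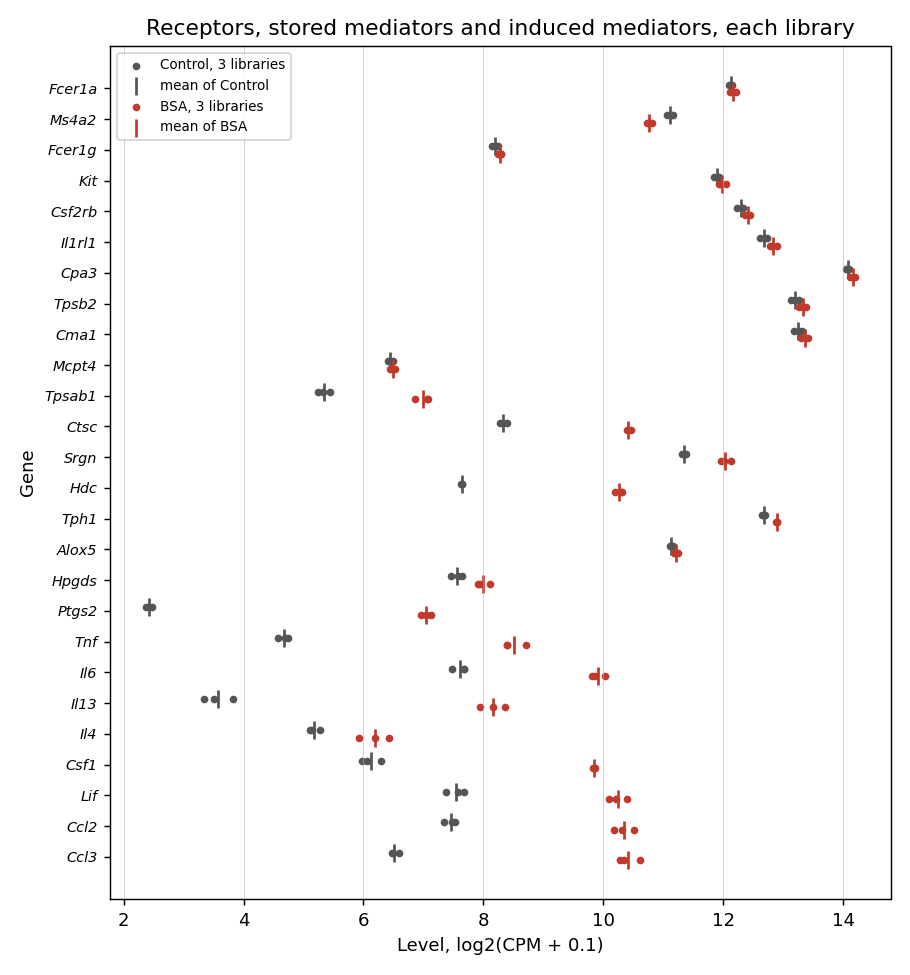
Level of receptor, stored mediator and induced mediator genes, as log2(CPM + 0.1) on the horizontal axis, with 1 point per library (Control grey, BSA red) and a bar for the mean of 3. Receptor genes other than Ms4a2 and the major protease genes sit close together in both groups, while Hdc, Ctsc, Tpsab1 and the cytokine genes are shifted to higher levels in BSA.

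Genes of the IgE receptor and its proximal cascade had 12 of 34 members higher and 3 lower, but 2 higher and 17 lower with total count scaling. The alpha chain gene Fcer1a was at 4380, 4502 and 4564 CPM in Control and at 4767, 4427 and 4561 in BSA (0.03 ± 0.04), so the groups overlapped. The beta chain gene Ms4a2 fell from 2242, 2141 and 2291 CPM to 1805, 1734 and 1701 CPM (-0.35 ± 0.04, adjusted p = 8.41e-08 by edgeR). Among called genes, predicted genes and pseudogenes not ranked, this was the largest loss in CPM after Txnip. The gamma chain gene Fcer1g did not pass the test (0.08 ± 0.05), and neither did Syk (0.08 ± 0.05) or Lat (-0.00 ± 0.05). With total count scaling Fcer1a, Fcer1g, Syk and Lat were called lower, at -0.19, -0.14, -0.14 and -0.23, and the median of the list went from 0.09 to -0.14. The SLP-76 gene Lcp2 rose from 687 to 1146 CPM (0.74 ± 0.04) and kept its call with total count scaling.

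Receptors for growth factors and interleukins had 10 of 30 members higher and 5 lower, but 6 and 14 with total count scaling. Kit, the stem cell factor receptor on which mast cells depend, was at 3827 CPM in Control and 4025 in BSA and did not pass the test (0.07 ± 0.04), with -0.15 and a call under total count scaling. The shared beta chain gene of the interleukin 3 receptor, Csf2rb (0.11 ± 0.04), and the interleukin 33 receptor Il1rl1 (0.15 ± 0.04) were called higher here; with total count scaling the first was called lower (-0.11) and the second stood at -0.08 without a call. Csf2rb also lost its call without Control replicate 2 or 3 or BSA replicate 2 or 3 (0.08 to 0.13). With total count scaling too, calls were made for the rises of Tnfrsf9 (4-1BB), Il2ra, Il2rg and Il10ra, by 0.48 to 0.74, and the falls of Il4ra (1077 to 824 CPM, -0.39 ± 0.04) and Tgfbr1 (-0.31 ± 0.05). Tnfrsf4 (OX40) fell furthest, by 1.35 on the log2 scale, from 25, 31 and 37 counts to 11, 11 and 7.

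The list of G-protein coupled receptors, which also holds the ATP-gated channel genes P2rx4 and P2rx7, moved in both directions. Of 41 members 13 were higher and 15 lower (10 and 19 with total count scaling). These were 31.7% and 36.6% of the members, against 15.1% and 17.4% of all genes. All 3 measured adenosine receptor genes of the list rose. Adora2b, a low-affinity adenosine receptor, went from 66.7, 60.5 and 61.7 CPM to 187, 170 and 187 CPM (1.53 ± 0.06), Adora2a from 25.5 to 87.3 CPM (1.77 ± 0.06) and Adora3 from 175 to 460 CPM (1.40 ± 0.05). Among other members Ccr1, a chemokine receptor, rose from 191 to 537 CPM (1.50 ± 0.05), the complement receptor C3ar1 from 292 to 647 CPM (1.15 ± 0.04), C5ar1 from 0.423 to 3.58 CPM (3.06 ± 0.33, and 3.70 without Control replicate 3) and the chemerin-binding Ccrl2 by 1.63 ± 0.11. P2ry1, an ADP receptor, fell from 210, 174 and 200 CPM to 81.9, 84.0 and 79.3 CPM (-1.25 ± 0.06), and Lpar6, a lysophosphatidic acid receptor, from 226, 238 and 228 CPM to 108, 109 and 114 CPM (-1.06 ± 0.05). The ATP-gated channel gene P2rx4 fell by 0.41 on the log2 scale and the sphingosine 1-phosphate receptor gene S1pr4 by 0.50. Histamine receptors Hrh1 (-0.70 ± 0.20) and Hrh4 (-0.41 ± 0.09) were lower as well.

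The list of inhibitory and immunoglobulin-like receptors also holds other membrane proteins, such as Cd69 and Cd63. It was split as well, with 7 of 24 higher and 6 lower (5 and 13 with total count scaling). The activation marker Cd69 rose from 268, 215 and 262 CPM to 1049, 951 and 966 CPM (1.99 ± 0.06), and the sialic acid receptor Cd33 from 151, 138 and 146 CPM to 549, 632 and 544 CPM (1.99 ± 0.06). Fcgr3 (-0.52 ± 0.06), the activating low-affinity IgG receptor, Fcgr2b (-0.23 ± 0.05), its inhibitory counterpart, and the checkpoint ligand Cd274 (-0.43 ± 0.05) were lower. Cd63, the granule membrane protein whose surface display marks degranulation, did not pass the test as a transcript unless Control replicate 2 or BSA replicate 2 was left out (0.13 and 0.14; 1202 and 1286 CPM, 0.10 ± 0.05, with -0.13 and a call under total count scaling).

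Feedback regulators of signalling were described by 3 lists. Among MAP kinase phosphatases, Sprouty proteins and RGS proteins, which shut off G-protein signals, 16 of 27 were higher and 5 lower. Rgs1 rose from 326 to 1449 CPM (2.15 ± 0.05), Rgs2 from 172 to 947 CPM (2.46 ± 0.05), Dusp6 from 91.3 to 255 CPM (1.48 ± 0.05) and Errfi1, an inhibitor of the EGF receptor, from 15.8 to 84.6 CPM (2.43 ± 0.08). Trib1, a pseudokinase that steers protein degradation, had 6, 8 and 9 counts in Control and 461, 360 and 398 in BSA (6.02 ± 0.17). In the list of SOCS, PIM and Tribbles genes 6 of 14 were higher and 4 lower, and 6 and 8 with total count scaling. Socs3 (1.21 ± 0.08) and Cish (0.94 ± 0.05), inhibitors of cytokine receptors, rose. Socs1 (-0.77 ± 0.08) and the survival kinase Pim2 (-0.78 ± 0.07) fell.

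Proteins that bind and destroy AU-rich mRNAs, among them those of cytokines, make up a further list. All 3 measured genes of the tristetraprolin family rose: Zfp36 from 14.1, 14.2 and 14.9 CPM to 78.0, 71.2 and 74.5 CPM (2.38 ± 0.07), Zfp36l1 by 2.20 ± 0.06 and Zfp36l2 by 1.38 ± 0.05. The nucleases Zc3h12a (1.08 ± 0.05) and Zc3h12c (2.34 ± 0.09) and the deadenylase partners Btg1, Btg2, Tob1 and Tob2 (1.45 to 3.27) rose with them. In the list as a whole 11 of 25 were higher and 8 lower (9 and 12 with total count scaling). The lower ones, such as Cnot8 and Dcp2 of the general deadenylation and decapping machinery, fell by at most 0.30 on the log2 scale.

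Mir132 and Mir212, genes of microRNAs that lie side by side on chromosome 11, were among 53 microRNA genes in the table, of which 7 were higher and 5 lower. Their mature 3′ arms are printed because they share a seed, bases 2 to 8, in capitals (RefSeq, GRCm38.p6).
mmu-miR-132-3p (chr11:75173723-75173744, plus): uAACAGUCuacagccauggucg
mmu-miR-212-3p (chr11:75173443-75173464, plus): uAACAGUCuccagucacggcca
Mir132 had 2, 0 and 0 counts in Control and 22, 14 and 19 in BSA, a ratio of 34.3 (9.05 to 290.3). Mir212 had 0, 2 and 1 counts against 21, 21 and 20, a ratio of 25.8 (8.42 to 128.4). Reads of a polyA library over a hairpin come from the primary transcript, so these counts do not measure the mature forms.

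Stored mediator genes moved by very different amounts. Hdc, which makes histamine, rose from 197, 201 and 199 CPM to 1178, 1265 and 1252 CPM (2.63 ± 0.05). Ctsc, the peptidase that activates granule proteases, rose from 336, 311 and 321 CPM to 1406, 1365 and 1341 CPM (2.09 ± 0.05), and the tryptase gene Tpsab1 from 40.2, 43.3 and 38.0 CPM to 117, 134 and 133 CPM (1.66 ± 0.06). Of 24 granule proteases and their inhibitors 13 were higher and 0 lower by edgeR's quasi-likelihood test, and 0 were lower at an unadjusted p under 0.05; total count scaling gave 5 and 6. The most abundant transcripts per kilobase in both groups were Cpa3, Cma1, Tpsb2 and Fcer1a. Carboxypeptidase Cpa3, at 11399 CPM per kb in Control and 12064 in BSA, did not pass the test (0.08 ± 0.04), and the chymase Mcpt4 did not either (0.05 ± 0.05). Cma1 (0.12 ± 0.04) and Tpsb2 (0.13 ± 0.04) were called higher by TMM. With total counts Cma1 (-0.11), Cpa3 (-0.14) and Mcpt4 (-0.18) were called lower, and Tpsb2 stood at -0.10 without a call. Cma1 and Tpsb2 also lost their calls without Control replicate 1 or 3 or BSA replicate 1 or 3 (0.09 to 0.12 and 0.10 to 0.13). Together Cpa3, Tpsb2 and Cma1 took 3.94% ± 0.109 of all counts in Control and 3.62% ± 0.110 in BSA. Reads of Tpsab1 and Tpsb2, similar neighbouring tryptase genes, may be exchanged in part by counting.

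Serglycin, the proteoglycan core that packs granules, rose as Srgn from 2543, 2625 and 2658 CPM to 4474, 4139 and 4002 CPM (0.69 ± 0.04). The heparin sulfotransferase gene Ndst2 fell from 837 to 567 CPM (-0.56 ± 0.05), and the linker enzyme gene B4galt7 by 0.80 on the log2 scale. In this list of amine and proteoglycan genes 7 of 26 were higher and 4 lower (3 and 11 with total count scaling). Tph1, of serotonin synthesis, was called higher (0.22 ± 0.04) but stood at -0.01 with total count scaling. Lipid mediator genes had 6 of 22 higher (27.3%) and 1 lower (4.55%), against 15.1% and 17.4% of all genes (3 and 10 with total count scaling). Ptgs2, the inducible cyclooxygenase, rose from 5.05, 5.44 and 5.27 CPM to 140, 132 and 124 CPM (4.65 ± 0.08), and Hpgds, prostaglandin D synthase, by 0.43 ± 0.05. Alox5, of leukotriene synthesis, did not pass the test (2248 and 2368 CPM, 0.07 ± 0.04, with -0.15 and a call under total count scaling). The exocytosis machinery had 8 of 32 members higher and 8 lower, 25% each, against 15.1% and 17.4% of all genes. Each of these called members changed by less than 0.8 in log2 except Rab3a, which fell by 1.44 from 2.26 CPM. Sytl3, a RAB27 effector, rose by 0.79 ± 0.06 and Napa, which recycles SNARE complexes, by 0.68 ± 0.05. Stxbp3 fell by 0.54 on the log2 scale. Of the exocytosis genes 4 were higher and 18 lower with total count scaling.

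**Figure D4:**
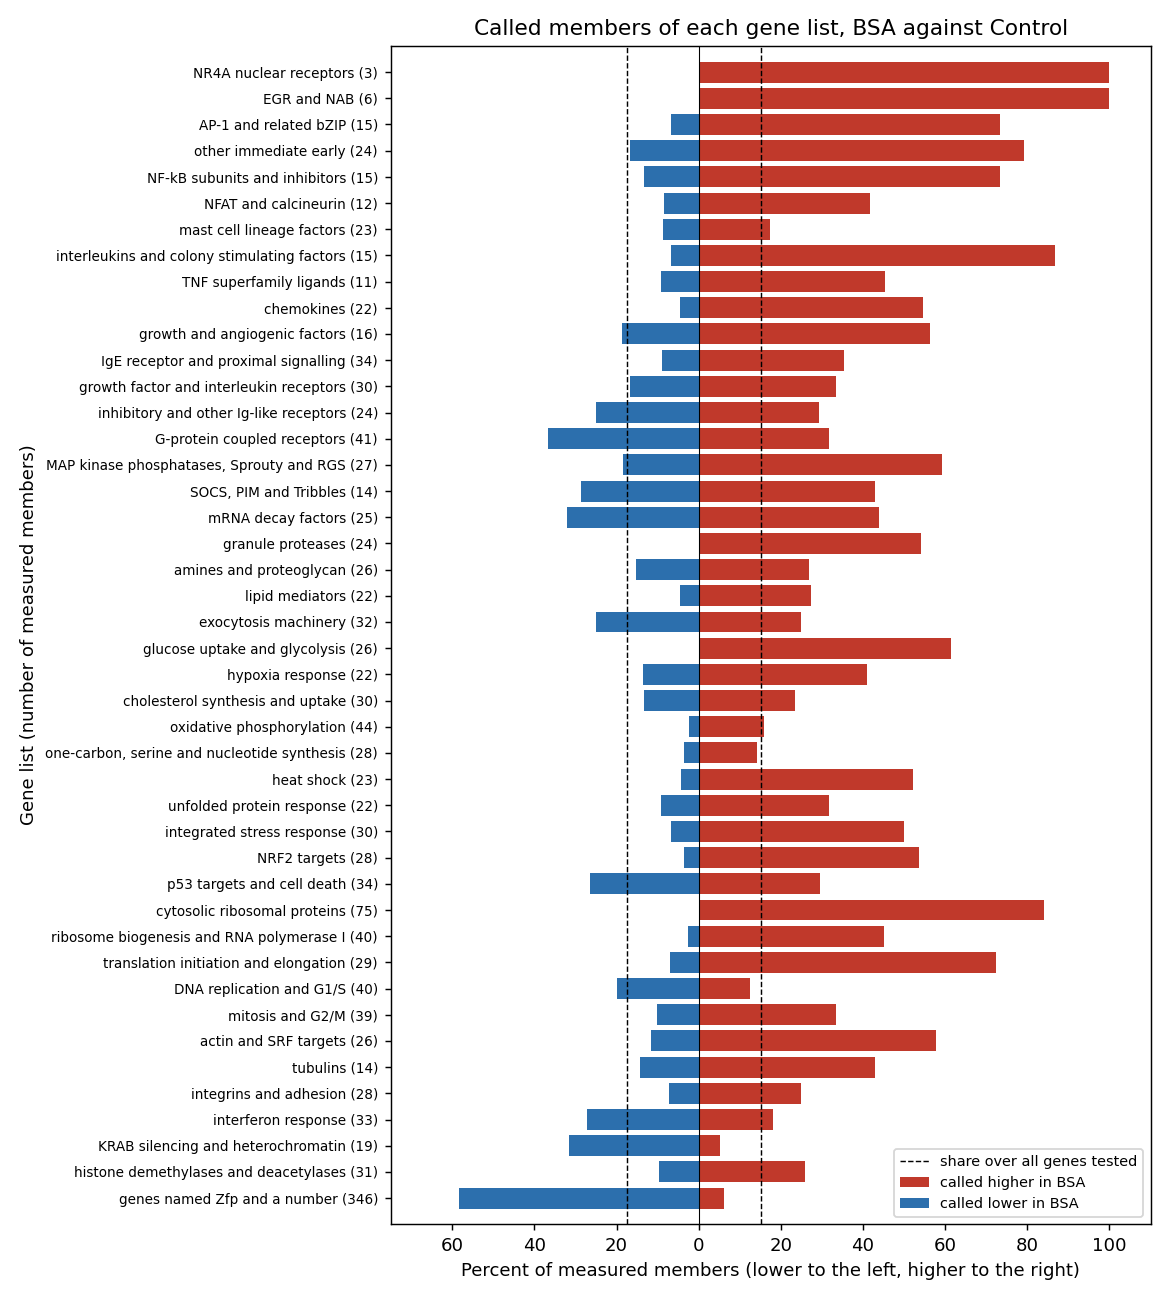
Percent of the measured members of each gene list that were called higher (red, to the right) or lower (blue, to the left) in BSA, with the number measured in brackets and dashed lines at the shares over all genes, 15.1% higher and 17.4% lower. Lists that reach far to the right include NR4A (100%), interleukins and colony stimulating factors (86.7%), cytosolic ribosomal proteins (84%) and AP-1 (73.3%). Not all transcription factor lists do: mast cell lineage factors stand at 17.4% higher. The zinc finger list reaches far to the left.

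Of genes for glucose uptake and glycolysis 16 of 26 were higher and 0 lower by edgeR's quasi-likelihood test, with 0 lower at an unadjusted p under 0.05 and 11 higher and 4 lower under total count scaling. The transporter Slc2a3 rose from 276, 261 and 264 CPM to 1054, 1145 and 1072 CPM (2.03 ± 0.05) and hexokinase Hk2 from 150 to 399 CPM (1.42 ± 0.05), while Ldha (0.35 ± 0.04) and Pkm (0.36 ± 0.04) rose by less. Hypoxia response genes had 9 of 22 higher and 3 lower; Ndrg1 rose by 2.71 ± 0.06 and Ero1l, a disulfide oxidase of the endoplasmic reticulum, from 1667 to 4443 CPM (1.41 ± 0.05), and Vhl, which marks HIF for destruction, fell by 0.96 on the log2 scale. The share of members higher was near the background of 15.1% for oxidative phosphorylation (7 of 44, 15.9%) and for one-carbon and nucleotide synthesis (4 of 28, 14.3%), where Odc1, of polyamine synthesis, rose most (0.82 ± 0.05). Cholesterol genes had 7 of 30 higher (23.3%) and 4 lower (13.3%), against 15.1% and 17.4% of all genes. Under total count scaling the higher and lower members numbered 7 and 10 for hypoxia, 1 and 30 for oxidative phosphorylation, 1 and 20 for one-carbon and nucleotide synthesis and 3 and 10 for cholesterol. Txnip, an inhibitor of glucose uptake and thioredoxin, fell from 1004, 1124 and 1066 CPM to 433, 453 and 440 (-1.27 ± 0.05). This was the largest loss in CPM among called genes, with predicted genes and pseudogenes not ranked.

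Targets of the antioxidant factor NRF2 had 15 of 28 higher and 1 lower (Keap1, its inhibitor, -0.25 ± 0.07), among the higher ones Srxn1 (102 to 683 CPM, 2.74 ± 0.05), Hmox1 (1.19 ± 0.05) and the autophagy receptor Sqstm1 (1612 to 3634 CPM, 1.17 ± 0.04). In the heat shock list 12 of 23 rose and 1 fell. The co-chaperone Dnajb1 rose from 188 to 910 CPM (2.28 ± 0.05) and Hspa8 by 0.74 ± 0.04. Of the integrated stress response 15 of 30 were higher and 2 lower, led by the phosphatase subunit Ppp1r15a (133 to 452 CPM, 1.77 ± 0.05), with Atf4 at 0.67 ± 0.04. The unfolded protein response had 7 of 22 higher and 2 lower: the chaperone genes Dnajb9 (1.32 ± 0.05) and Hspa5 (0.77 ± 0.04) rose, whereas Calr (0.02 ± 0.04) and Canx (0.01 ± 0.04), chaperones of the same compartment, did not pass the test and were at -0.20 and -0.21, both called, with total count scaling. Cell death genes went both ways, 10 of 34 higher and 9 lower. The survival gene Mcl1 (416 to 1007 CPM, 1.28 ± 0.04), the cell cycle inhibitor Cdkn1a (390 to 1298 CPM, 1.74 ± 0.05), the p53 ligase Mdm2 (1.20 ± 0.05) and the BH3-only gene Pmaip1 (1.38 ± 0.06) rose, and the BH3-only gene Bmf fell by 0.85 on the log2 scale. With total count scaling the higher and lower members numbered 8 and 11 for NRF2 targets (median -0.07), 8 and 6 for heat shock, 11 and 7 for the integrated stress response, 4 and 13 for the unfolded protein response and 8 and 19 for cell death.

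Growth genes shifted by small amounts whose direction rested on scaling. Of 75 genes for cytosolic ribosomal proteins edgeR called 63 higher and 0 lower, 0 lower at an unadjusted p under 0.05, but their median was only 0.16, and with total count scaling it was -0.07, with 0 higher and 5 lower. Their summed level was 36245, 40306 and 37245 CPM in Control and 42800, 40406 and 44296 CPM in BSA, so Control replicate 2 came close to BSA replicate 2. Among translation factors 21 of 29 were higher and 2 lower; Eif4a1 (679 to 1090 CPM, 0.68 ± 0.04) and Eif4e (0.65 ± 0.05) kept their call with total count scaling, and Eef1a1 (0.22 ± 0.04) lost it at -0.00. DNA replication genes had 5 of 40 higher (12.5%) and 8 lower (20%), near the 15.1% and 17.4% of all genes. Pcna, the polymerase clamp, nonetheless rose from 304, 318 and 306 CPM to 946, 897 and 927 CPM (1.58 ± 0.05) and Orc1, of the origin complex, from 9.57 to 29.7 CPM (1.63 ± 0.09), while the cyclin Ccne2 fell by 0.64 on the log2 scale. Scaled by total counts, 3 replication genes were higher and 27 lower, and 7 translation factors were higher and 6 lower. Of 39 mitosis genes 13 were higher and 4 lower, none by 2-fold, but 1 and 23 with total count scaling, and the proliferation marker Mki67 did not pass the test (429 and 439 CPM, 0.03 ± 0.05, with -0.19 and a call under total count scaling).

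Actin genes and targets of serum response factor had 15 of 26 higher and 3 lower (5 and 9 with total count scaling, at a median of -0.03), with Actg1 (493 to 815 CPM, 0.73 ± 0.04), Actb (0.37 ± 0.04) and Srf itself (0.60 ± 0.06) among the rises. Marcksl1, an actin-crosslinking protein outside that list, was among the 15 largest rises (2.69, 3.80 and 3.94 CPM to 130, 117 and 126 CPM, 5.15 ± 0.09), and Plek, a protein kinase C substrate of blood cells, rose from 876, 837 and 872 CPM to 4323, 4210 and 4056 CPM (2.28 ± 0.04). Tubulins were mixed: Tuba1c rose by 1.04 ± 0.06 and Tubb4b by 0.57 ± 0.05, while Tubb5, the most abundant of them by counts, fell from 910 to 767 CPM (-0.25 ± 0.04). Integrins and adhesion genes had 7 of 28 higher and 2 lower (4 and 9 with total count scaling), including Cd44, the hyaluronan receptor (0.83 ± 0.07), and Itgb3 (-0.20 ± 0.05). Itga2b, at 1732 and 1745 CPM, did not pass the test (0.01 ± 0.04, with -0.21 and a call under total count scaling). Interferon response genes had 6 of 33 higher (18.2%) and 9 lower (27.3%), against 15.1% and 17.4% of all genes (4 and 18 with total count scaling). Rsad2 (0.90 ± 0.07) and Isg15 (1.24 ± 0.16) were among the higher ones, and Stat2 (-0.79 ± 0.07), Irf1 and Usp18 (-0.54 ± 0.08) among the lower.

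Chromatin regulators held 2 strong rises. Kdm6b, the demethylase of the repressive H3K27 mark, went from 71.9, 69.6 and 67.2 CPM to 526, 562 and 519 CPM (2.95 ± 0.05), and Brd2, a reader of acetylated histones, from 374 to 911 CPM (1.28 ± 0.04). In the list of histone modifiers and readers 8 of 31 were higher and 3 lower (4 and 16 with total count scaling).

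Zinc finger genes, many of which encode repressors that bind DNA through arrays of fingers, were frequent among the deepest falls. Of the 15 largest falls 9 were Zfp genes. Zfp760 was at 15.2, 13.6 and 14.01 CPM in Control and at 2.78, 4.27 and 2.78 CPM in BSA (-2.11 ± 0.14), and Zfp870 fell from 5.73, 5.31 and 4.94 CPM to 0.464, 1.37 and 1.58 CPM (-2.25 ± 0.25). Of all 346 genes named Zfp and a number, 202 were lower (58.4%) and 21 higher, at a median of -0.48, against 17.4% lower and a median of -0.01 over all genes; 68 were lower by at least 2-fold and 8 higher. With total count scaling 255 were lower and 15 higher, at a median of -0.70. Over all 15109 genes that scaling gave 6742 lower and 1059 higher, at a median of -0.23. It moves genes down in general, so it could not have reversed this direction. The levels of these zinc finger genes had a median of 10.9 CPM and quartiles at 3.31 and 27.2. Of all 15109 genes, 2387 lay at 2 to 10 CPM and 4291 at 10 to 50 CPM. Genes at 10 to 50 CPM were called lower in 28.8% of cases and those at 2 to 10 CPM in 24.1%, compared with 6.59% of genes above 200 CPM. Symbols chose the set, so the RNA-binding Zfp36 is in it too.

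**Figure D5:**
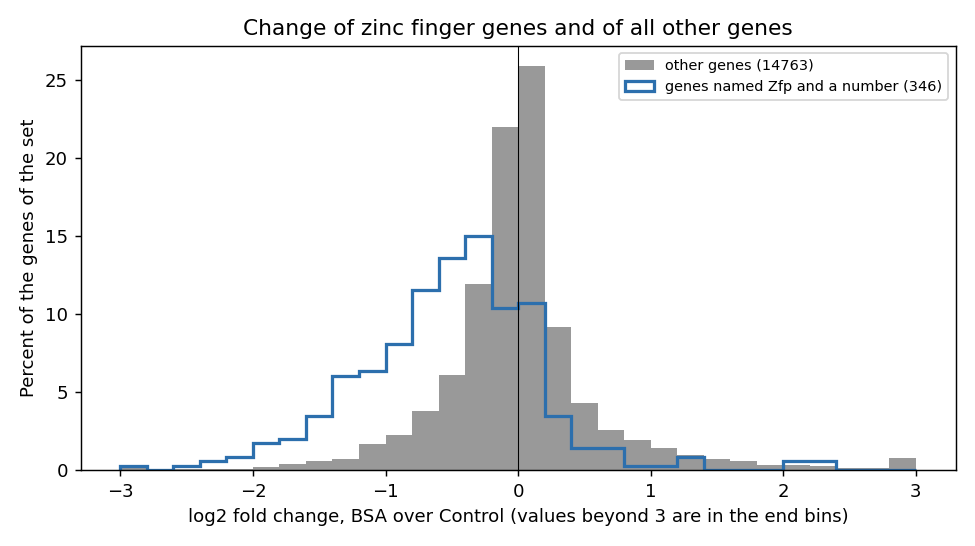
Distribution of log2 fold changes (horizontal, bins of 0.2, values beyond 3 in the end bins) for the 346 genes named Zfp and a number (blue line) and for the other 14763 genes (grey), as percent of each set. The zinc finger genes centre below 0, at a median of -0.48.

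The lower zinc finger genes were spread over many chromosomes and most numerous where many such genes were measured. Chromosome 7 held 86 measured genes, 53 of them lower, chromosome 17 held 45 with 36 lower, and chromosome 13 held 34 with 26 lower. Over all chromosomes 202 of 346 were lower. Elsewhere the share varied, with 5 of 20 lower on chromosome 4 and 4 of 4 on chromosome 10. In a run on chromosome 17, 32965814 to 33358878, chosen after its values were seen, all 8 measured genes were lower, at a median of -1.44 (Zfp472, Zfp952, Zfp763, Zfp563, Zfp955a, Zfp955b, Zfp422-ps and Zfp81). Zfp563, for instance, had 61, 52 and 50 counts in Control and 11, 12 and 10 in BSA. Such neighbours are similar in sequence, and reads may be shared between them. The partners through which KRAB-type zinc finger proteins silence chromatin moved less: of 19 such genes 1 was higher and 6 lower, the deepest of these 6 being Tasor at -0.32 ± 0.06 (1 and 17 with total count scaling), and Trim28, their shared corepressor, did not pass the test (209 and 213 CPM, 0.03 ± 0.05, with -0.20 and a call under total count scaling).

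Other deep falls were Kcnj2, an inward rectifier potassium channel (23.9, 22.6 and 21.1 CPM to 5.72, 5.96 and 5.28 CPM, -1.99 ± 0.11), Gfi1, a haematopoietic repressor (-1.77 ± 0.24), the transporter Slc16a4 (-2.11 ± 0.29) and the glycosyltransferase B3gnt7 (-1.92 ± 0.18). Ccdc39, known from motile cilia, gave the deepest fall among the genes ranked, which left out genes under 2 CPM. It was at 58, 39 and 59 counts in Control and 6, 7 and 9 in BSA (-2.49 ± 0.30). In each of these the groups did not overlap, which was a condition of the choice.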

How the data were processed

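The deposited table of gene-level counts contains whole numbers; its totals differ between libraries, so no scaling is visible in the values although its name speaks of TMM. The deposited log2 table equals log2(CPM + 1) by plain totals. STAR 2.7.0f, limma 3.11 and the builds mm10 and GRCm38 are named per the submitters' processing notes; for the counting program, the annotation and the strand setting, "not given in the sources used here" applies, so reads of overlapping antisense genes may not be separated. Libraries were stranded, polyA-selected and read in pairs of 101 bases, per the labels' protocols.

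From the counts, edgeR 4.0.16 (R 4.3.3) fitted the 6 libraries by group with TMM scaling and no filter on low counts. The quasi-likelihood test was two-sided, with Benjamini-Hochberg adjustment over 15109 genes and a threshold of 0.05. SE is the fold change divided by the square root of F. Alternatives were relative log expression, total count and upper quartile scaling, DESeq2 1.42.0, limma 3.58.1 with trend on the deposited log2 values, filterByExpr, a replicate block and leaving out each library. Exact intervals of count ratios cover counting error only. Coordinates and gene lengths come from GENCODE M21, which held 15106 of the genes, and promoters and microRNAs from RefSeq.

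The members and the 43 gene lists were chosen with earlier results of these data known. Named genes were the 15 largest rises and falls, each, among called genes of at least 2 CPM without overlap, the 10 largest gains and losses in CPM, up to 6 of smallest p and 3 of highest level per list, and a fixed set of mast cell genes. A few genes that this rule names are not reported here. Genes outside that rule were chosen after their values were seen: Batf, C5ar1, Ccl12, Ccl25, Ccl5, Ccr3, Ccrl2, Cd14, Cnot8, Csf1r, Dcp2, Fcgr2b, Hrh1, Hrh4, Id1, Id3, Il10, Il1a, Il33, Keap1, Klf10, Lyz2, Mir132, Mir212, Myc, Nfkbie, P2ry1, Pdgfa, Pgf, Rab3a, Rad50, S1pr4, Socs1, Tnfrsf4, Tnip2, Tob1, Zc3h12a, Zc3h12c, Zfp422-ps, Zfp472, Zfp81, Zfp952, Zfp955a and Zfp955b.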

Additional observations from a re-analysis of the deposited data

How the results depend on the processing

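Against 4917 genes called, the totals were 4975 with relative log expression scaling, 4896 with upper quartile scaling, 3982 by DESeq2 and 4908 after filterByExpr. Leaving out 1 library at a time gave 4013 to 4524 genes called, 1823 to 2144 higher, 2190 to 2418 lower, 869 to 936 called with at least 2-fold, and 45.4% to 47.4% of called genes higher, against 46.4% with all 6. Total count scaling gave 7801 called, 1059 higher, 6742 lower and 13.6% higher. limma on the deposited log2 values, which rest on plain totals, gave 7802 called, 1060 higher, 6742 lower, 13.6% higher and 513 with at least 2-fold; those values carry an added 1, which shrinks folds of low genes.

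The genes whose direction turned with total count scaling and which were called in at least 1 of the fits compared were Alox5 (-0.15), Calr (-0.20), Canx (-0.21), Ccl6 (-0.066), Cd63 (-0.13), Cma1 (-0.11), Cpa3 (-0.14), Csf2rb (-0.11), Eef1a1 (-0.0012, and -0.0024 by limma), Fcer1a (-0.19), Fcer1g (-0.14), Il1rl1 (-0.076), Itga2b (-0.21), Kit (-0.15), Mcpt4 (-0.18), Mki67 (-0.19), Rad50 (-0.20), Spi1 (-0.22), Syk (-0.14), Tph1 (-0.0082, and -0.0081 by limma), Tpsb2 (-0.10) and Trim28 (-0.20). All of these also turned by limma on the deposited values, where they were within 0.01 of the values given (Cpa3 was called by neither limma nor the TMM fit), Spi1 at -0.21. Csf1r and Il15 turned too, to -0.03 and -0.19 with total counts and to -0.0079 and -0.18 by limma, and were called in none of these fits. Of 218 genes named, 185 kept sign and call under each alternative that gave a value.

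With the replicate number as a block (replicate block), 4717 genes were called, 2140 higher and 2577 lower, 908 with at least 2-fold and 45.4% higher; Cma1, Csf2rb and Il33 lost their calls. Same-numbered libraries did not deviate together over 10762 genes (r = -0.03, -0.15 and -0.03). The highest values were between Control replicate 1 and BSA replicate 2 (r = 0.14) and between Control replicate 2 and BSA replicate 3 (r = 0.14). The main fit therefore did not use the numbers as pairs. Deviations from means of 3 libraries cannot tell whether samples shared a culture or a batch.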
